A study of Mus musculus with 17 samples.

Results

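The TCF and LEF transcription factors, the Lgr receptors and 2 further genes that respond to Wnt signals were followed by RNA sequencing in mouse prostate and prostate tumours. The 9 genes were taken by symbol or gene identifier: Lef1, Tcf7, Tcf7l1 and Tcf7l2, the receptor genes Lgr4, Lgr5 and Lgr6, and the transcription factor genes Prox1 and Ascl2. All 9 were among the 39179 genes of the inducible model, and 8 were among the 13898 genes of the genotype comparison. Ascl2 had no row in the genotype table, which lists no gene with a mean value under 15.56, so its level there is not known. The libraries used were 14 of 17, all from C57BL/6 mice. Wild-type prostate had 3 libraries, from mice aged 12 months. Tumours with 1 copy of a Ctnnb1 allele lacking exon 3 had 3 libraries, from mice aged about 12 months (the Ctnnb1 group). Tumours that also carried a further engineered change had 3 libraries, from mice aged about 6 to 8 months (the combined group), so age and genotype differ together there and cannot be told apart. An inducible model had 2 mock-treated and 3 ADT-treated tumour libraries, where ADT stands for androgen deprivation, all from mice aged about 15 months. It combines a Ctnnb1 allele lacking exon 3 with a further engineered change as well, and its alleles are labelled differently from those of the combined group. The labels mark the alleles of the Ctnnb1 and combined groups with the letters pc, do not spell them out, and do not say how the mock or ADT treatment was given. They also do not say that the libraries of a group came from separate animals, so p-values measure the spread between these samples, which may be technical.

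Wnt signals keep beta-catenin, the product of Ctnnb1, from being broken down, and exon 3 holds the part through which it is marked for breakdown. In the nucleus beta-catenin binds TCF and LEF proteins, which sit on DNA and turn target genes on with it, or off with Groucho-type corepressors without it. Lef1 and Tcf7 are mostly described as activators that are Wnt targets themselves, Tcf7l1 mostly as a repressor, and Tcf7l2 as the main family member of intestinal epithelium. The Lgr receptors bind R-spondins, which keep Frizzled receptors on the cell surface, and Lgr5 and the transcription factor Ascl2 mark Wnt-dependent stem cells of the intestine. Lgr6 marks stem cells of the skin. Prox1 controls the identity of lymphatic endothelium, is active in liver cells, and is a Wnt target in intestinal tumours.

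The promoters of the members were searched for the core letters that TCF and LEF proteins bind, because several members rose in the same tumours. The RefSeq promoter table (build GRCm38.p6) held 14 windows for 8 members, each from 250 bases before to 50 bases after an annotated start, with Lgr5 not matched. The motifs were TCAAAG and ACAAAG, read on both strands (CTTTGA and CTTTGT), and they cannot overlap each other at the same position. They occurred in 4 of the 14 windows. Of all 32851 windows of the same length in the table, 31.2% held at least 1 match, 6.68% at least 2 and 1.1% at least 3. A start of Lef1 inside the gene (chr3:131156044-131156343, plus strand) had 3 matches, at 180, 146 and 120 bases before that start. The most upstream Lef1 window (chr3:131110047-131110346, plus strand) had none. A Prox1 window (chr1:190169466-190169765, minus strand) had 1 match, as did the window of Tcf7l1 (chr6:72788996-72789295, minus strand), and a window of Tcf7l2 (chr19:55895071-55895370, plus strand). The more upstream Prox1 window (chr1:190170778-190171077, minus strand) and the other windows of Lef1 and Tcf7l2 had none. The windows of Tcf7, Lgr4, Lgr6 and Ascl2 held none of these letters. A match is a description of the letters and not a measured binding site, and gene totals do not separate transcripts by start. Both of these Lef1 windows are shown to set a window with matches beside one without, and those of Prox1 and Tcf7l1 as the member that rose most and a member that fell. They are written 5′ to 3′ along the gene, and capitals mark each match:
Lef1, most upstream start: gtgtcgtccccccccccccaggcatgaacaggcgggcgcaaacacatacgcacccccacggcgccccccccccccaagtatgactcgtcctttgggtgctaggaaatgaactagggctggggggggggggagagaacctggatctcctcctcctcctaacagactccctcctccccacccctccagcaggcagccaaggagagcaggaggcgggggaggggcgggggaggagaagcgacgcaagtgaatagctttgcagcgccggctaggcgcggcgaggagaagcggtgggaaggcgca
Lef1, internal start: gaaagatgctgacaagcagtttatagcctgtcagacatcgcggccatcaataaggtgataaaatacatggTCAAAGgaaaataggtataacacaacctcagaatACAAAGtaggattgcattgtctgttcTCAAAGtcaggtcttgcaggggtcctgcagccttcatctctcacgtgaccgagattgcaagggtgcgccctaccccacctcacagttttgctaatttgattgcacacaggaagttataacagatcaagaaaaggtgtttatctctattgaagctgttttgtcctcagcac
Prox1: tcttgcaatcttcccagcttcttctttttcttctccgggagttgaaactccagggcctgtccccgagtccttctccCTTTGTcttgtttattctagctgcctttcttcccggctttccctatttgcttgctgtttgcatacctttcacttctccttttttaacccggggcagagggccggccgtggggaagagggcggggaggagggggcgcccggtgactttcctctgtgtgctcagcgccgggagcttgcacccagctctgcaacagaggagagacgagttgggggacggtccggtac
Tcf7l1: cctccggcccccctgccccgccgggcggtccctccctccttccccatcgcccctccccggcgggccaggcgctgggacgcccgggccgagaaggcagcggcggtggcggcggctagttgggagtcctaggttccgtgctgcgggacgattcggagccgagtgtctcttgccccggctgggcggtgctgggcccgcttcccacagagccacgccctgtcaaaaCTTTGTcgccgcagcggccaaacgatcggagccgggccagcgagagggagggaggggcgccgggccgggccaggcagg

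The values are gene counts that the authors had scaled per library and rounded, so totals are not sequencing depths and the depth behind a gene is unknown. Totals over all listed features ran from 45675083 to 47248750 in wild-type, 33903149 to 35120175 in Ctnnb1 and 32455483 to 34376245 in combined libraries, and from 30591734 to 32791101 in the inducible model. The mock and ADT libraries came from separate files with their own scaling and were compared only with each other. Log2 changes are on the scale of log2(value + 1), and tests are those of limma with Benjamini-Hochberg adjustment over all genes tested, called at an adjusted p under 0.05. The pieces differed in tissue. Summed markers of smooth muscle were 162884 to 206259 in wild-type, 2443 to 4928 in Ctnnb1 and 7823 to 23316 in combined libraries, with 10 of 10 markers called lower in both tumour groups. Summed markers of seminal vesicle, a neighbouring gland, were 481458 to 4696004, 216 to 5144 and 44682 to 217025. The summed level of 10 luminal epithelial markers was 487521 to 669640 in wild-type, 134273 to 165549 in Ctnnb1 and 147997 to 175811 in combined libraries, with 3 called higher and 5 lower in each tumour group. Most of the wild-type sum was 1 gene, Pbsn, at 555331, 420759 and 383138. Its Ctnnb1 values were 7403, 65567 and 8439, and its combined values 39687, 9251 and 4885. The median log2 change of the 10 markers was -0.13 (Ctnnb1) and -0.26 (combined), and Krt8 and Krt19 were called higher in both. The lower sum thus reflects Pbsn and does not show a fall shared by the markers. The sum of all 10 markers was 112122 and 140993 in mock and 64999, 82074 and 61792 in ADT libraries. Of their log2 changes 0 of 10 were above 0, and 0 were called. Of these markers 1 was at 0 in 1 library (ADT replicate 1). In bulk tissue, fewer cells of a type and less RNA per cell cannot be told apart.

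In the Ctnnb1 group 5 of the 8 listed members were called higher than wild type (Lef1, Tcf7, Lgr5, Lgr6 and Prox1) and 2 lower (Tcf7l1 and Lgr4). Over all 13898 genes tested, 28.9% were called higher and 29.6% lower. In the combined group 5 of 8 were called higher (Lef1, Tcf7, Lgr4, Lgr5 and Prox1) and 2 lower (Tcf7l1 and Tcf7l2), against 28.3% and 29.5% of all genes. The same shares of all genes are the background for each later count of listed genes in these comparisons, also where they are not repeated. The median log2 change of the 8 members was 1.98 and 1.3, where the median of all genes was 0.0 and -0.01. Both comparisons use the same wild-type libraries, so their results are not independent.

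**Figure D1:**
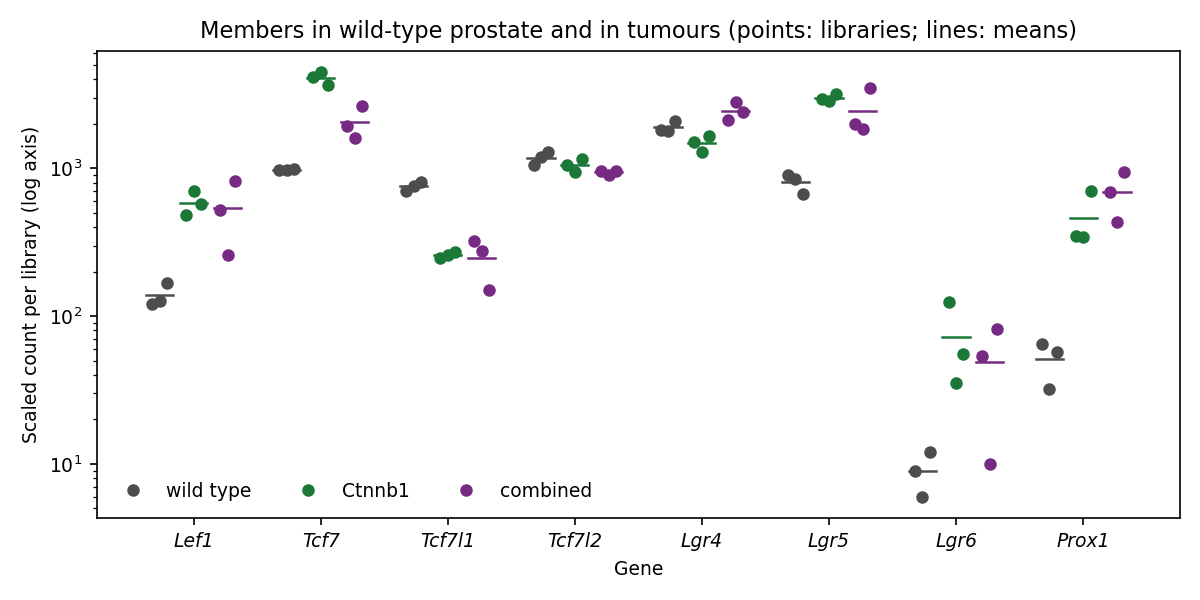
Scaled counts (log axis) of the 8 listed members in 3 wild-type, 3 Ctnnb1 and 3 combined libraries, with points for libraries and lines for group means. Lef1, Tcf7, Lgr5 and Prox1 lie above every wild-type library in all 6 tumour libraries and Tcf7l1 lies below, while 1 combined library of Lgr6, at 10, lies within the wild-type range of 6 to 12.

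Lef1 (Entrez 16842; GRCm38 chromosome 3, 131110471 to 131224356, plus strand) encodes the activator that gives the family part of its name. Its scaled counts were 120, 127 and 167 in wild-type libraries, 484, 700 and 571 in Ctnnb1 tumours, and 523, 260 and 823 in combined tumours. Every tumour library lay above every wild-type library, and the combined libraries spread the most. The mean was 138.0 ± 25.4 in wild type and 585.0 ± 109 in the Ctnnb1 group (SD, n = 3 each), which is 4.24 times as high. Lef1 was called higher in the Ctnnb1 group (log2 change 2.07, SE 0.38, 95% interval 1.21 to 2.94, limma adjusted p 0.00195). It averaged 535.3 ± 282 in combined tumours (SD, n = 3) and was also called higher there (log2 change 1.81, SE 0.38, 95% interval 0.95 to 2.68, limma adjusted p 0.00382). Gm42449 overlaps Lef1 on the same strand over 2258 bases and Gm43352 on the other strand over 1620 bases, and both may share its reads.

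Tcf7 (Entrez 21414; GRCm38 chromosome 11, 52252371 to 52283014, minus strand) encodes TCF1, best known from T cells. It was at 975, 976 and 987 in wild-type tissue, at 4116, 4485 and 3649 in Ctnnb1 tumours, and at 1935, 1592 and 2653 in combined tumours. The groups did not overlap, and the wild-type libraries were almost level. Its mean was 979.3 ± 6.66 in wild-type tissue, 4083 ± 419 in Ctnnb1 tumours, and 2060 ± 541 in combined tumours (SD, n = 3 each). It was called higher in the Ctnnb1 group (log2 change 2.05, SE 0.17, limma adjusted p 4.62e-05) and in the combined group (log2 change 1.04, SE 0.17, limma adjusted p 0.00104). The difference between the tumour groups was not tested. Whether the authors counted reads by strand is not given in the sources used here. A630014C17Rik, an antisense gene that overlaps Tcf7 over 6960 bases, was higher as well in the Ctnnb1 group (log2 change 1.98, SE 0.36, limma adjusted p 0.00195), and reads of this pair may be shared. Gm26551 overlaps Tcf7 on the same strand over 17144 bases.

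T cells use both Lef1 and Tcf7, and part of the T cell markers were higher in the tumours too. The 11 listed T cell markers summed to 383 to 406 in wild-type, 806 to 943 in Ctnnb1 and 702 to 2773 in combined libraries. In the Ctnnb1 group 5 of 11 were called higher and 0 lower, and in the combined group 7 and 0, and no marker was at 0 in any library. Of all genes, 28.9% and 28.3% were called higher in these comparisons. Of the 11 log2 changes, 10 were above 0 in each tumour group. Cd8a, 1 of these markers, was at 25, 22 and 17 in wild-type tissue, 154, 213 and 176 in Ctnnb1 tumours, and 366, 74 and 52 in combined tumours. Cd3e, a subunit of the T cell receptor complex, was at 44, 25 and 27 in wild-type tissue, 57, 77 and 52 in Ctnnb1 tumours, and 142, 40 and 24 in combined tumours. Its change was not called (adjusted p 0.2 and 0.33 in limma). Within the combined group, replicate 10 had the highest T cell sum (2773) and replicate 12 the lowest (702), while replicate 12 had the most Tcf7 and Lef1. The part of T cells in the Lef1 and Tcf7 differences was not tested.

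Tcf7l1 (Entrez 21415; GRCm38 chromosome 6, 72626378 to 72789254, minus strand), the family member best known as a repressor, went the other way. Its scaled counts were 705, 757 and 806 in wild-type tissue, 246, 257 and 273 in Ctnnb1 tumours, and 320, 277 and 149 in combined tumours. No tumour library reached the lowest wild-type library. The mean fell from 756.0 ± 50.5 to 258.7 ± 13.6 and 248.7 ± 89.0 (SD, n = 3 each). Both falls were called (log2 change -1.54, SE 0.26, limma adjusted p 0.00123 in Ctnnb1 tumours, and -1.67, SE 0.26, limma adjusted p 0.000808 in combined tumours). The smooth muscle markers given above fell in the same libraries, and their part in the fall of Tcf7l1 was not tested. Gm15401 and Gm15402 overlap Tcf7l1 on the other strand over 8430 and 5877 bases, and Gm37969 on the same strand over 3409 bases. Further genes overlap it over fewer bases, and all of these may share its reads.

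Tcf7l2 (Entrez 21416; GRCm38 chromosome 19, 55741820 to 55933654, plus strand) stayed within a narrow range. It was at 1051, 1192 and 1284 in wild-type tissue, 1052, 937 and 1154 in Ctnnb1 tumours, and 962, 896 and 953 in combined tumours. The first 2 groups overlapped, and all combined libraries lay below wild type. The change was not called in the Ctnnb1 group (log2 change -0.17, 95% interval -0.40 to 0.07, limma adjusted p 0.196). It was called lower in the combined group (log2 change -0.32, SE 0.10, limma adjusted p 0.0267), and that call was lost without wild-type replicate 2 (adjusted p 0.0762), wild-type replicate 3 (0.0936) or combined replicate 11 (0.0728). With libraries scaled to equal totals, which lifts the median of all genes by 0.49 and 0.51 (log2) in these comparisons, Tcf7l2 turned to 0.33 in the Ctnnb1 group, where it was then called higher (limma adjusted p 0.0276), and to 0.19 in the combined group, where the call was lost (limma adjusted p 0.151). Both values lay below the shift of all genes. Ppnr overlaps Tcf7l2 on the same strand over 4226 bases and may share its reads.

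Levels between genes were compared per kilobase of merged exons (GENCODE M21), which includes all annotated isoforms. Tcf7 made up 54.3%, 52.0% and 50.4% of the summed TCF and LEF level per kilobase in wild-type libraries, and Tcf7l1 26.2%, 27.0% and 27.5%. In the Ctnnb1 group the share of Tcf7 was 86.8%, 87.2% and 83.9% and that of Tcf7l1 3.47%, 3.34% and 4.2%. Combined tumours had shares of 74.6%, 75.0% and 80.8% for Tcf7 and 8.26%, 8.73% and 3.04% for Tcf7l1. The family thus went from a mix with a large Tcf7l1 part to one of mostly Tcf7 in each of the 6 tumour libraries. Lef1 took 1.99% to 2.54% in wild type and 3.05% to 7.49% in tumours, so it stayed a small part by this measure, and Tcf7l2 went from 17.5% to 19.6% down to 5.45% to 12.6%. The summed level per kilobase was 684.5 to 746.7 in wild-type, 1656.2 to 1960.5 in Ctnnb1 and 808.8 to 1250.9 in combined libraries. Shares within a library do not depend on its scaling, and they do not show that Tcf7l2 itself changed.

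**Figure D2:**
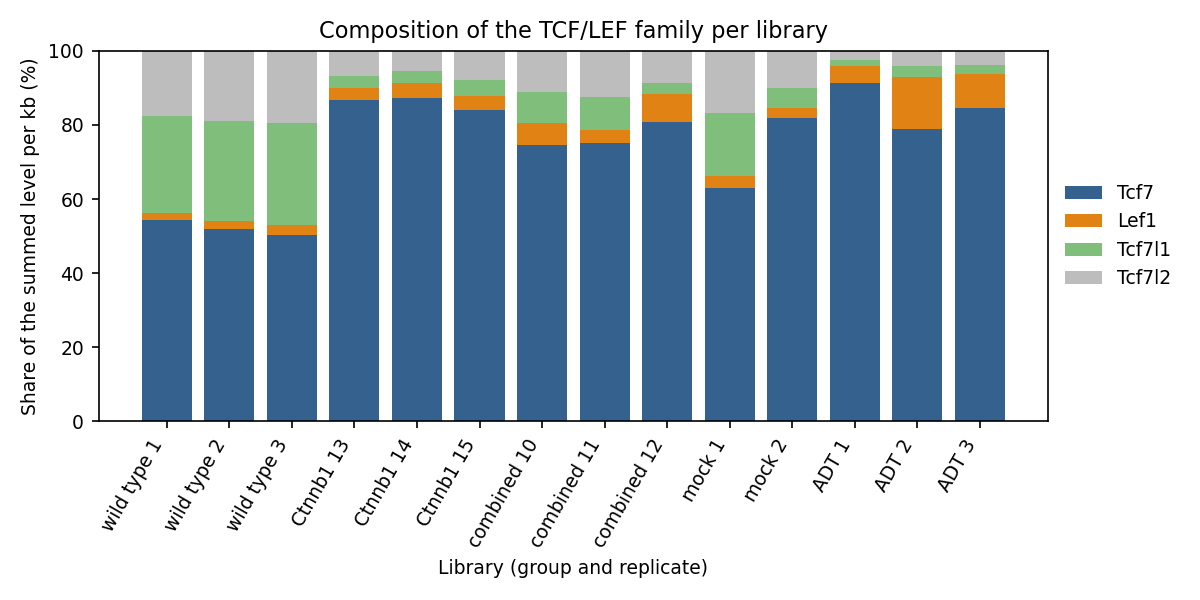
Share (%) of each TCF and LEF gene in the family's summed level per kilobase, with 1 stacked bar for each of the 14 libraries. Tcf7 rises from 50.4% to 54.3% in wild type to 83.9% to 87.2% in the Ctnnb1 group, and Tcf7l1 shrinks from 26.2% to 27.5% to 3.34% to 4.2%.

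Among the R-spondin receptors, Lgr5 (Entrez 14160; GRCm38 chromosome 10, 115450311 to 115587780, minus strand) rose. It was at 898, 842 and 669 in wild-type tissue, 2962, 2838 and 3174 in Ctnnb1 tumours, and 2003, 1853 and 3478 in combined tumours. All tumour libraries lay above all wild-type libraries, and the Ctnnb1 libraries were close together. A930009A15Rik overlaps Lgr5 on the other strand over 12463 bases and may share its reads. The mean went from 803.0 ± 119 to 2991 ± 170 and 2445 ± 898 (SD, n = 3 each). Both rises were called (log2 change 1.91, SE 0.23, limma adjusted p 0.000236 in Ctnnb1 tumours, and 1.56, SE 0.23, limma adjusted p 0.000615 in combined tumours).

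Lgr6 (Entrez 329252; GRCm38 chromosome 1, 134983301 to 135105276, minus strand) had the lowest level per kilobase of the receptors. It was at 9, 6 and 12 in wild-type tissue, 125, 35 and 55 in Ctnnb1 tumours, and 54, 10 and 82 in combined tumours. The Ctnnb1 libraries lay above wild type, and combined replicate 11 overlapped it. The rise in the Ctnnb1 group was called (log2 change 2.71, SE 0.79, 95% interval 0.90 to 4.52, limma adjusted p 0.0179) and was lost without wild-type replicate 2 (adjusted p 0.0587) or Ctnnb1 replicate 13 (0.0673). In the combined group the change was not called (log2 change 1.93, 95% interval 0.12 to 3.74, limma adjusted p 0.0647), and it was called without combined replicate 11 (log2 change 2.80, limma adjusted p 0.00602). The 11 listed squamous and hair-type keratinisation genes summed to 617 to 892 in wild-type libraries, where 1 or 2 were at 0, and 9 of 11 were called higher in each tumour group. Their sums were 7334, 2772 and 5916 in Ctnnb1 replicates 13, 14 and 15 and 6831, 4820 and 7260 in combined replicates 10, 11 and 12, in the same order of libraries as Lgr6 within each group. Their part in the Lgr6 values was not tested.

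Lgr4 (Entrez 107515; GRCm38 chromosome 2, 109917647 to 110014257, plus strand), the most widely expressed of the receptors in adult tissues, moved little. It was at 1807, 1799 and 2085 in wild-type tissue, 1510, 1279 and 1648 in Ctnnb1 tumours, and 2137, 2818 and 2391 in combined tumours. The Ctnnb1 libraries lay below and the combined libraries above the wild-type range. Both calls were near the threshold (log2 change -0.36, SE 0.13, limma adjusted p 0.0391 in Ctnnb1 tumours, and 0.36, SE 0.13, limma adjusted p 0.0398 in combined tumours). The call in the Ctnnb1 group stood in 1 of 6 fits that left out a library (adjusted p 0.0314 to 0.125), and with equal totals the value turned to 0.13 (adjusted p 0.382), below the shift of all genes. With equal totals the value in the combined group was 0.88 (limma adjusted p 0.00035), above the shift of 0.51. Both calls were lost without a trend in the prior variance (limma adjusted p 0.0558 and 0.0568) and in the fit of 12 libraries (0.0638 and 0.0648). The call in the combined group stood in 2 of 6 such fits (adjusted p 0.0229 to 0.12). It was lost without wild-type replicate 1 or 2 or combined replicate 11 or 12, and the call in the Ctnnb1 group was lost without any wild-type library, Ctnnb1 replicate 13 or Ctnnb1 replicate 14.

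Prox1 (Entrez 19130; GRCm38 chromosome 1, 190118035 to 190170714, minus strand) had the highest log2 change of the members in both tumour groups. Its scaled counts were 65, 32 and 57 in wild-type tissue, 347, 342 and 701 in Ctnnb1 tumours, and 695, 436 and 948 in combined tumours. The lowest tumour library was several times the highest wild-type library. The mean was 51.33 ± 17.2 in wild-type tissue, 463.3 ± 206 in Ctnnb1 tumours and 693.0 ± 256 in the combined group (SD, n = 3 each), or 9.03 and 13.5 times the wild-type mean. Both rises were called (log2 change 3.12, SE 0.41, 95% interval 2.2 to 4.05, limma adjusted p 0.00036 in Ctnnb1 tumours, and 3.72, SE 0.41, 95% interval 2.79 to 4.65, limma adjusted p 0.000153 in combined tumours). The genes Gm28172 and Prox1os overlap Prox1 on the other strand, over 964 and 419 bases, and may share its reads.

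Markers of 3 cell types that can use Prox1 were set beside it. The 6 listed markers of lymphatic endothelium summed to 4288 to 5265 in wild-type, 2870 to 3572 in Ctnnb1 and 3066 to 5606 in combined libraries. Nr2f2 was the largest part of each sum, at 2995, 3324 and 3616 in wild-type and 2594, 2322 and 2366 in combined libraries. Pdpn was at 382, 328 and 361 in wild-type and 1506, 1096 and 252 in combined libraries. Of the 6 log2 changes, 2 were above 0 in the combined group and 1 in the Ctnnb1 group. In the Ctnnb1 group 0 of 6 were called higher and 3 lower, and in the combined group 1 higher (Flt4, a receptor for lymphatic growth factors) and 1 lower (Nr2f2). Mmrn1 was at 0 in wild-type replicate 1 and in combined replicate 10. Lyve1, a receptor for hyaluronan on lymphatic vessels, was at 348, 380 and 354 in wild type and at 36, 175 and 51 in the Ctnnb1 group (log2 change -2.37, limma adjusted p 0.0371). In the combined group it was at 557, 253 and 56 and not called (log2 change -0.85, limma adjusted p 0.404). Of 7 neuroendocrine markers, a cell type that can also use Prox1, 7 were called lower in Ctnnb1 tumours, and 5 in combined tumours, and 0 higher in either. Of all genes, 29.6% and 29.5% were called lower. Of 3 listed markers of liver-type cells (Alb, Hnf4a and Glul), 2 were called higher in the Ctnnb1 group and 3 in the combined group. Of all genes, 28.9% and 28.3% were called higher. Hnf4a, a liver and gut transcription factor, was at 3, 1 and 0 in wild-type libraries, 26, 6 and 9 in Ctnnb1 libraries and 288, 295 and 98 in combined libraries. Glul, the glutamine synthetase gene, was at 20771 to 27946 in wild-type and 113327 to 376950 in tumour libraries, so it was already high where Alb and Hnf4a were near 0. Alb, the albumin gene, was at 23163 in combined replicate 11 and at 2 to 71 in the other 8 libraries. The part of these cell types in the Prox1 values was not tested.

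**Figure D3:**
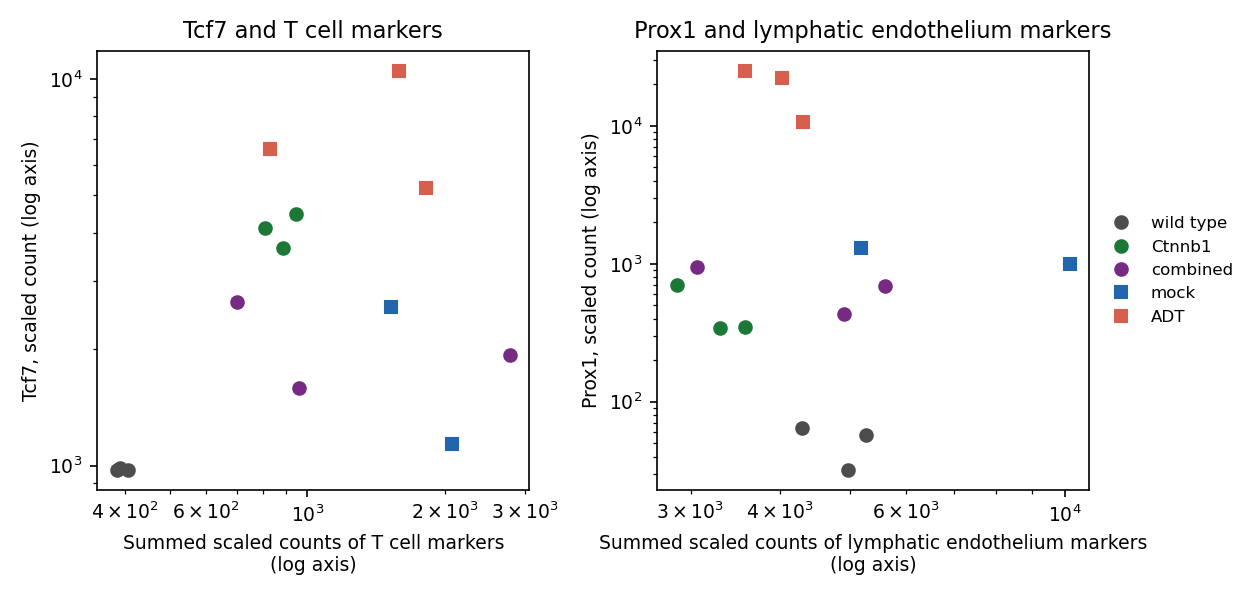
Tcf7 against the summed T cell markers and Prox1 against the summed lymphatic endothelial markers (scaled counts, log axes), 1 point per library, with squares for the separately scaled inducible model, whose files list more of these markers. The T cell sum is 383 to 406 in wild type, with Tcf7 at 975 to 987, and 806 to 943 in the Ctnnb1 group, with Tcf7 at 3649 to 4485. In combined replicates 10, 11 and 12 the sums are 2773, 961 and 702, with Tcf7 at 1935, 1592 and 2653. Within the inducible model, Prox1 is at 10692 to 25119 in ADT libraries and at 989 and 1306 in mock libraries. The lymphatic sums of the ADT libraries, 3571 to 4305, lie below both mock libraries. The part of these cell types was not tested.

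Within the combined group, replicate 12 was highest and replicate 11 lowest for each of Lef1, Tcf7, Lgr5, Lgr6 and Prox1, and Tcf7l1 was lowest in replicate 12. Lgr4 differed, with its highest value in replicate 11 (2137, 2818 and 2391 in replicates 10, 11 and 12). The summed fibroblast markers ran in the opposite order, at 49945 in replicate 12, 317108 in replicate 10 and 640517 in replicate 11, as did those of blood endothelium (6241, 10549 and 11963). In wild-type libraries the fibroblast sum was 37474 to 42578 and in Ctnnb1 libraries 27555 to 35243. The part of stroma in this spread was not tested.

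Across the 9 genotype libraries, Pearson's r between log2 values was 0.94 for Lef1 and Lgr5, 0.93 for Tcf7 and Lgr5, 0.91 for Lgr5 and Prox1 and -0.96 for Tcf7l1 and Lgr5. Lgr4 was not close to any member, with r from -0.48 to 0.14. These values describe libraries that fall into groups, so the group difference alone can give a high r. Among all genes whose mean value was 50 or more, the closest to Lef1 over the 9 libraries was Nxf1 (r = 0.982), an mRNA export factor. The closest to Tcf7 was Lrch2 (r = 0.996), to Tcf7l1 Hdgfrp3 (r = 0.988), and to Lgr5 Itga6 (r = 0.995), an integrin subunit. The closest to Prox1 was Proser1 (r = 0.993), and to Lgr6 S100a7a (r = 0.968), a gene of stressed skin. Tcf7l2 lay closest to Atp8a1 (r = 0.96) and Lgr4 to Mtss1 (r = 0.969).

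Other genes of the pathway were read from lists. Of 26 listed Wnt feedback and target genes, 18 were called higher and 1 lower in the Ctnnb1 group (median log2 change 1.41), and 18 higher and 3 lower in the combined group (median 1.72). Axin2, a feedback scaffold of beta-catenin breakdown, went from 1777, 2136 and 2278 in wild type to 15825, 18451 and 17245 in the Ctnnb1 group (log2 change 3.06, SE 0.20, limma adjusted p 2.21e-05). Dkk2, a secreted Wnt pathway modulator, went from 243, 194 and 222 to 11709, 5834 and 21992 (log2 change 5.70, SE 0.40). Cd44, a surface receptor for hyaluronan, and Nkd1, a feedback inhibitor, rose as well (log2 changes 3.62 and 2.06). The same 4 genes had the smallest p of the list in the combined group, at log2 changes of 2.49 for Axin2, 5.76 for Dkk2, 3.94 for Cd44 and 1.60 for Nkd1.

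Of 25 partners of beta-catenin at chromatin, 12 were called higher and 3 lower in the Ctnnb1 group (median 0.20), and 9 higher and 4 lower in the combined group (median 0.15), where the shares of all genes were 28.9% and 29.6%, and 28.3% and 29.5%. Tbl1xr1, a corepressor exchange factor, was at 1030, 928 and 1052 in wild-type tissue, 1907, 1909 and 1988 in Ctnnb1 tumours, and 1998, 1999 and 1956 in combined tumours. Ctnnbip1, which blocks the contact between beta-catenin and TCF proteins, fell in the Ctnnb1 group from 426, 453 and 491 to 226, 236 and 209 (log2 change -1.03, SE 0.12, limma adjusted p 0.000213). The coactivator genes Crebbp and Ep300 rose there (log2 changes 0.73 and 0.64).

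Of the R-spondins, the ligands of the Lgr receptors, Rspo2 and Rspo3 fell in both tumour groups. Rspo2 was at 137, 114 and 215 in wild-type tissue, at 0 in all 3 Ctnnb1 libraries and at 1, 2 and 0 in the combined group. Rspo3 was at 580, 648 and 942 in wild-type tissue, 16, 10 and 16 in Ctnnb1 tumours, and 224, 232 and 37 in combined tumours. Rspo3 was called lower in both (log2 change -5.59, SE 0.65, limma adjusted p 0.000223, and -2.49, SE 0.65, limma adjusted p 0.0112). Rspo2 was also called lower in both (limma adjusted p 5.07e-05 and 8.1e-05), and its fitted change depends on the value added before the log. Rspo1 was at 23 in all 3 wild-type libraries, 23, 40 and 22 in Ctnnb1 libraries and 157, 186 and 22 in combined libraries, and was not called (limma adjusted p 0.797 and 0.0571). R-spondins come largely from stroma, and the smooth muscle sums above fell in the same libraries. The fibroblast sums did not fall alike, at 37474 to 42578 in wild-type, 27555 to 35243 in Ctnnb1 and 49945 to 640517 in combined libraries. The part of stroma in the R-spondin values was not tested.

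The ligases that R-spondins hold in check went up with Lgr5. Znrf3 was at 1115, 1249 and 1141 in wild-type tissue, 5661, 3918 and 6065 in Ctnnb1 tumours, and 3823, 2426 and 5637 in combined tumours. Rnf43 was at 1273, 1358 and 1446, then 5177, 3855 and 4873, and 3745, 3726 and 7074. Both were called in both comparisons, with log2 changes of 1.68 to 2.13. Of the 10 listed genes of this axis, 3 were called higher and 3 lower in the Ctnnb1 group (median 0.14), against 28.9% and 29.6% of all genes. In the combined group 3 were higher and 4 lower (median 0.12), against 28.3% and 29.5% of all genes. The counts were close to those shares.

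The intestinal stem cell-type genes overlap the Wnt target list. Of 19 listed, 9 were called higher and 8 lower in the Ctnnb1 group (median 0.60), and 11 higher and 4 lower in the combined group (median 1.00). Of those called higher, 8 in each group are also in the Wnt feedback and target list, and 1 (Cdca7) and 3 (Cdca7, Olfm4 and Tert) are not, while all 8 and 4 called lower (Lrig1, Bmi1, Hopx and Rgmb in the combined group) are outside that list. Sox9, a transcription factor of intestinal crypts, rose in the Ctnnb1 group (log2 change 1.08, SE 0.12, limma adjusted p 0.00015). Bmi1, a chromatin repressor used as a stem cell marker, fell there from 1732, 1657 and 1918 to 866, 1049 and 927 (log2 change -0.90, SE 0.09, limma adjusted p 0.000132). Ephb3, a receptor that positions crypt cells, rose in combined tumours from 218, 202 and 214 to 622, 909 and 899 (log2 change 1.91, SE 0.22, limma adjusted p 0.00022).

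**Figure D4:**
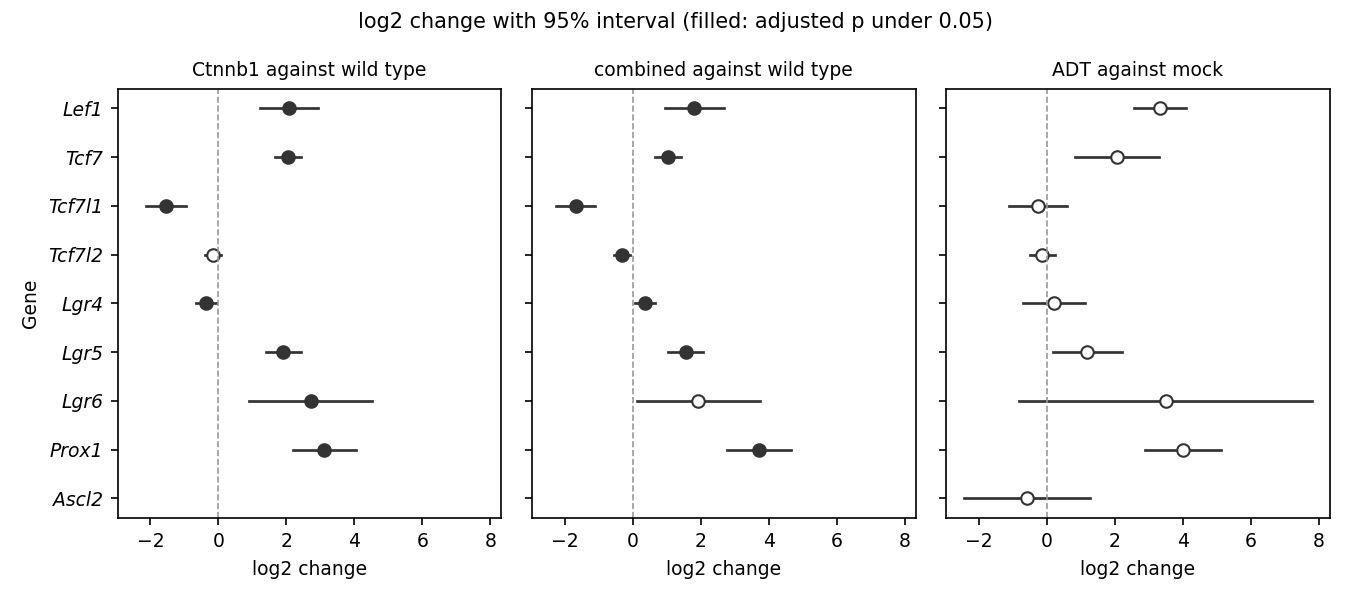
Log2 change of each member with its 95% interval in the 3 comparisons, where filled points have an adjusted p under 0.05. Lef1, Tcf7, Lgr5 and Prox1 lie above 0 and Tcf7l1 below 0 in both comparisons with wild type. Tcf7l2 and Lgr4 lie within 0.36 of 0 there and change sign with equal totals, Tcf7l2 in both and Lgr4 in the Ctnnb1 group. The points of ADT against mock are open, and Prox1 and Lef1 lie highest among those whose interval stays above 0.

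Androgen deprivation was set against mock treatment in the inducible tumours, which share 1 genotype label. No member was called (0 of 9), where limma called 2 of 23289 genes (0.00859%), Pycr1 and Tubb4a, which were named after their values were seen. At an unadjusted p under 0.05 stood 4 of 9 members (Lef1, Prox1, Tcf7 and Lgr5), against 16.2% of all genes. The groups did not overlap for 5 of 9, with ADT higher each time (these 4 and Lgr6), against 16.4% of all genes not overlapping with ADT higher. The median log2 change of the members was 1.19 and that of all genes -0.02.

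Prox1 was at 989 and 1306 in mock and at 10692, 25119 and 22306 in ADT libraries. The lowest ADT library was far above the highest mock library. The mean was 1148 ± 224 (SD, n = 2) against 19370 ± 7650 (SD, n = 3), 16.9 times as high. The log2 change was 4.0 (SE 0.43, 95% interval 2.88 to 5.11), with an unadjusted p of 0.000311 and an adjusted p of 0.0883 in limma, so it did not pass. The 7 lymphatic markers summed to 10142 and 5183 in mock and 4305, 3571 and 4029 in ADT libraries. Alb was at 385 and 55 in mock and 26204, 212562 and 501486 in ADT libraries. The liver genes Apoa1 and Fgb were at 1 and 0 in the mock libraries and at 0 in all 3 ADT libraries. Ahsg, another liver gene, was at 45 and 10 and at 33, 15 and 11. Afp, the alpha-fetoprotein gene, was at 4 and 14 in mock and at 12, 4854 and 103 in ADT libraries, with its high value in ADT replicate 2, where Prox1 was also highest. Without Alb and Glul the listed liver-type markers summed to 145 and 298 in mock and 69, 5026 and 170 in ADT libraries. The part of liver-type cells in the Prox1 values was not tested.

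Lef1 was at 201 and 277 in mock and at 1804, 3081 and 2408 in ADT libraries. The groups were far apart relative to their spread. The mean was 239.0 ± 53.7 (SD, n = 2) against 2431 ± 639 (SD, n = 3), and the log2 change was 3.33 (SE 0.29, 95% interval 2.56 to 4.09, limma adjusted p 0.071). It passed with libraries scaled to equal totals (adjusted p 0.0438) and among genes whose mean value was 50 or more (0.0411), and without any single library its adjusted p was 0.158 to 0.396. Tcf7 was at 1135 and 2572 in mock and at 10499, 5231 and 6594 in ADT libraries. Its log2 change was 2.06 (SE 0.47, 95% interval 0.82 to 3.30, limma adjusted p 0.182). The 15 T cell markers summed to 2070 and 1521 in mock and 1589, 1820 and 829 in ADT libraries, with 2 of 15 log2 changes above 0 and 0 of 15 called, and no marker was at 0.

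The other TCF genes showed no clear difference. Tcf7l1 was at 458 and 248 in mock and 272, 313 and 261 in ADT libraries (log2 change -0.26, 95% interval -1.12 to 0.59, limma adjusted p 0.74). Tcf7l2 was at 1000 and 1067, and at 926, 887 and 1027 (log2 change -0.13, 95% interval -0.50 to 0.24, limma adjusted p 0.698). Both overlapped between the groups. By level per kilobase, Lef1 made up 3.33% and 2.64% of the family in mock and 4.69%, 13.9% and 9.23% in ADT libraries. The share of Tcf7 was 63.0% and 81.9% in mock and 91.3%, 78.9% and 84.6% in ADT libraries, so the mock libraries differed more from each other than mock replicate 2 did from the ADT libraries.

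**Figure D5:**
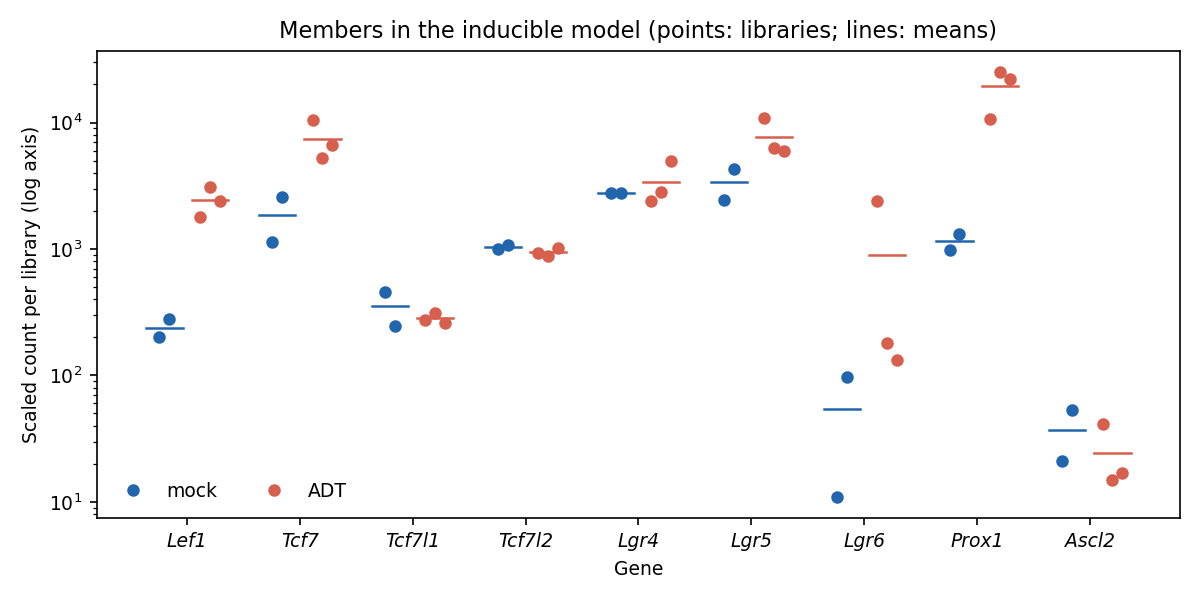
Scaled counts (log axis) of the 9 members in 2 mock and 3 ADT libraries of the inducible model, with points for libraries and lines for means. Lef1, Tcf7, Lgr5, Lgr6 and Prox1 do not overlap between the groups, and 1 ADT library stands at 2396 for Lgr6 where the others are at 182 and 132.

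Of the receptors, Lgr5 was at 2451 and 4305 in mock and 10913, 6291 and 5964 in ADT libraries (log2 change 1.19, SE 0.39, 95% interval 0.18 to 2.21, limma adjusted p 0.25). Lgr6 was at 11 and 97 in mock and 2396, 182 and 132 in ADT libraries. Its interval was wide (log2 change 3.50, 95% interval -0.81 to 7.81, limma adjusted p 0.393), and leaving out a library moved the change between 1.98 and 5.01. Lgr4 was at 2783 and 2757 and at 2379, 2834 and 4997, with overlapping groups (log2 change 0.22, 95% interval -0.69 to 1.13, limma adjusted p 0.792). Ascl2, which in the intestine works with Lgr5 stem cells, had the lowest level per kilobase of the members in ADT libraries (15.0 ± 8.92, SD, n = 3). It was at 21 and 53 in mock and 41, 15 and 17 in ADT libraries (log2 change -0.59, 95% interval -2.44 to 1.26, limma adjusted p 0.73).

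Single libraries stood out in this model. The summed squamous and hair-type genes were 3254 and 16548 in mock and 7128, 18472 and 17234 in ADT libraries, lowest of the ADT libraries in replicate 1, where Lgr6 was highest. ADT replicate 1 was highest for Tcf7, Lgr5 and Lgr6 and lowest for Lef1 and Prox1. Rspo3 was at 188 and 226 in mock and 606, 1476 and 3469 in ADT libraries (log2 change 2.82, SE 0.76, limma adjusted p 0.199). Rspo3 and Lgr5 both lay above mock here, and neither passed. Within the ADT libraries they ran in opposite order, with Lgr5 at 10913, 6291 and 5964 in replicates 1, 2 and 3. ADT replicate 1 also held 2572 of the ligand gene Rspo4 (6 and 5 in the other ADT libraries), 1265 of the Wnt inhibitor gene Dkk1 (14 and 3) and 8605 of Nkd2 (805 and 274). Mock replicate 2 exceeded mock replicate 1 for Lef1, Tcf7, Lgr5, Lgr6 and Prox1. The mock libraries also differed in Krt5, a basal keratin (384 in replicate 1 and 12184 in replicate 2), and in summed fibroblast markers (618103 and 125078), where the ADT libraries had 435752, 111700 and 77288. The part of tissue content in the ADT values was not tested.

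None of the 28 Wnt feedback and target genes was called under ADT (median log2 change 0.79, with 17 above 0). Bmp4, a secreted growth factor, was at 248 and 295 in mock and 5045, 6120 and 3364 in ADT libraries (log2 change 4.11, SE 0.29, limma adjusted p 0.0657). Apcdd1, a Wnt inhibitor at the cell surface, was at 4731 and 15211 and at 67714, 70092 and 100065 (log2 change 3.2, SE 0.54, limma adjusted p 0.128). Mmp7, a matrix protease, was at 111837 and 83922 in mock and 1353, 7497 and 3354 in ADT libraries (log2 change -4.90, SE 0.75, limma adjusted p 0.122), so listed targets lay on both sides. Of the 25 partners at chromatin, the 12 genes of the R-spondin axis and the 20 intestinal stem cell-type genes, 0 were called, with medians of 0.28, -0.41 and -0.26. Ctnnb1 itself was at 30608 and 40205 in mock and 64204, 76649 and 74725 in ADT libraries (log2 change 1.03, SE 0.18, limma adjusted p 0.133), with an exon total that cannot show the deletion.

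By mean level per kilobase Tcf7 led in wild-type and tumour libraries, at 373 ± 2.54 in wild-type tissue, 1560 ± 160 in Ctnnb1 and 785 ± 206 in combined libraries (SD, n = 3 each). Lgr4 came next in wild type (322 ± 27.7), followed by Tcf7l1 (193 ± 12.9), Tcf7l2 (134 ± 13.4), Lgr5 (78.2 ± 11.6), Lef1 (15.7 ± 2.89), Prox1 (6.12 ± 2.05) and Lgr6 (1.31 ± 0.435), and each gap exceeded the larger SD of its neighbours. In the Ctnnb1 group Lgr5 (291 ± 16.6) stood above Lgr4 (251 ± 31.7), and Lef1 (66.6 ± 12.4), Tcf7l1 (65.9 ± 3.46) and Prox1 (55.2 ± 24.5) could not be ordered within their spread. In the combined group Prox1 (82.6 ± 30.5), Tcf7l1 (63.4 ± 22.7) and Lef1 (60.9 ± 32.1) could not be ordered either. In ADT libraries Prox1 (2310 ± 912) stood next to Tcf7 (2830 ± 1040) within their spread, with Prox1 the higher in 2 of 3 libraries, and both were above Lgr5 (752 ± 270), while in mock libraries Tcf7 (706 ± 387) and Lgr4 (471 ± 3.13) could not be ordered, since Lgr4 was the higher in replicate 1, and Prox1 was at 137 ± 26.7, between Lgr5 (329 ± 128) and Tcf7l2 (118 ± 5.40), and within its SD of the latter.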

How the data were processed

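Transcripts were measured by RNA sequencing in frozen prostate or prostate tumour tissue. Per the labels' protocols, BGI sequenced RNA with an integrity number over 7.3 from both ends, at 90 nt a read, on a HiSeq 2000 instrument. Per the submitters' processing notes, the tools were DESeq2 1.14.1, R 3.2.3, HTSeq 0.6.0, Bowtie2 2.2.6.0, TopHat2 2.1.0 and FastQC 0.11.4, and the build GRCm38.p3, with no role stated for each. The deposited values are scores: gene counts that the authors scaled with 1 factor for each library and then rounded, as judged from the values. Depth per gene, and so the precision it gives, is unknown.

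Of 15195 features in the genotype files, 631 without an identifier and 270 with a shared identifier were left out. A further 396 were left out because their values equalled those of an earlier row in every library, which kept 13898 genes. Of 42847 in the inducible model, 3668 rows that repeated an earlier identifier were left out, and 15208 symbols were filled from a gene name table. A further genotype group, and any comparison between the Ctnnb1 and combined groups, is not reported here. Genes with a value of at least 1 in 3 of 9 genotype libraries, or 2 of 5 inducible ones, were tested with limma 3.58.1 (R 4.3.3) with a prior variance trend on log2(value + 1). The 9 genotype libraries shared a fit. A gene was called at a Benjamini-Hochberg adjusted p under 0.05, intervals are 95%, and the fit was checked on simulated data. Tables were made in Python 3.11.15. Alternatives were other pseudocounts, filters, scalings, prior variances, libraries in the fit, a replicate block and each library left out.

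The members and the 16 gene lists were chosen with earlier results of these data known, and the promoter motifs after the windows were seen. Named genes are all members, up to 4 per pathway list by smallest p in a comparison (also shown as values elsewhere), the closest gene to each member, and cell type markers. Rspo1 to Rspo4, Znrf3, Rnf43, Dkk1, Nkd2, the stem cell-type genes outside the Wnt list and the overlapping genes were named after their values were seen.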

Additional observations from a re-analysis of the deposited data

How the results depend on the processing

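Of the member changes recomputed under each alternative, 115 of 126 kept their direction and side of the threshold in the Ctnnb1 comparison, 114 of 126 in the combined comparison and 119 of 125 under ADT. With equal totals, Tcf7l2 turned to 0.33 (Ctnnb1) and 0.19 (combined) and Lgr4 to 0.13 (Ctnnb1) on the log2 scale. The median of all genes moved by 0.49 and 0.51 under that scaling, and the share of calls that were higher went from 49.4% to 78.9% and from 48.9% to 81.9%. Under ADT, leaving out a library moved Tcf7l1 between -0.70 and 0.18, Lgr4 between -0.09 and 0.44 and Ascl2 between -1.23 and 0.06. Against 2 genes called for ADT in limma, there were 5 with a pseudocount of 8, 60 among genes with a mean of at least 50, 48 with equal totals, 18 with TMM factors, 29 with a robust prior, 0 without a trend, and 0 to 0 when a library was left out. At an unadjusted p under 0.05 the main fit held 3779 genes. Members called under ADT numbered 1 (Lef1) with the stricter filter and 1 (Lef1) with equal totals. The cause was not tested. With a replicate block, 0 genes were called under ADT and Lgr4 turned to -0.09. Mock and ADT share only 2 numbers, whose deviations correlate at 0.267 and 0.119 over 14520 genes. With 2 mock libraries the mock deviations are mirror images, so these values cannot decide whether the numbers mark pairs. The main fit did not treat them as pairs. Wild-type, Ctnnb1 and combined libraries share no numbers. The stricter filter removed Lgr6 from the genotype fits and Ascl2 from the ADT fit, and the fit of 12 libraries had no Lgr6. Unknown depth limits the low members, Lgr6 and Ascl2.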
